A study of Homo sapiens with 4 samples.

Results

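The genes described here are 37 that carry glucose into the cell, split it to pyruvate, and turn pyruvate into lactate that leaves the cell, or that set the rate of those steps. They were found by symbol, from a list, among 58051 gene identifiers in the deposited expression tables, and all 37 were present. They comprise 4 glucose carriers, 16 enzymes of the steps from hexokinase to pyruvate kinase, the enzymes and phosphatases that set fructose bisphosphate levels, the lactate dehydrogenase subunits, the kinases and 2 subunits of pyruvate dehydrogenase, the lactate carriers with their partner basigin, and phosphoglucomutase 1.

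Glucose enters cells down its gradient through carriers of the GLUT family and is trapped by phosphorylation by a hexokinase. Phosphofructokinase is the main control point of the following steps, and fructose 2,6-bisphosphate, made and removed by the PFKFB enzymes, is its strongest activator. Pyruvate is either reduced to lactate by lactate dehydrogenase and exported with a proton by monocarboxylate carriers, or oxidised in mitochondria by pyruvate dehydrogenase, which the PDK kinases switch off; tumour lines usually send much of it to lactate. Many of these genes are targets of hypoxia-inducible factor and of MYC, and others, with TXNIP and ARRDC4, of the glucose-sensing factors MondoA and ChREBP.

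Poly(A) RNA was measured in H441, a lung adenocarcinoma line, and in HT29, a colorectal adenocarcinoma line, each grown for 7 days in RPMI-1640 or in HPLM, a medium whose small molecules are set near their levels in human plasma. All 4 groups had 10% fetal bovine serum, and no genetic change is given in the labels. Each group is a single established line in a single medium, and whether its 3 numbered libraries are separate cultures is not in the labels. The p-values then cover the spread among libraries alone, possibly a technical one. The question is how the medium moves each step of the pathway, and which isoenzyme carries it, in either line.

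Levels are in TPM (transcript abundance scaled for gene length and library size), with SD over the 3 libraries of a group, and libraries are listed in the order 1, 2, 3. Changes are HPLM over RPMI-1640 on the log2(TPM + 1) scale with SE, which understates changes of low genes. They were tested per line with limma over all genes, and "rose" and "fell" mark a Benjamini-Hochberg adjusted p under 0.05. The 2 lines were deposited as separate tables, so levels in H441 and HT29 are set side by side without a test.

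Libraries held 14.2 to 30.6 M recovered reads. Library 1 of HT29 in RPMI-1640, the one with fewest reads, stood apart: chi-square divided by its degrees of freedom was 169 and 221 for its counts against libraries 2 and 3, compared with 11.9 between libraries 2 and 3 and 1.79 to 13.6 within the other groups. HT29 changes are therefore given with and without it. The share of TPM in mitochondrially encoded genes, which leaves less for all other genes, was 26.3% ± 2.38 in H441 with RPMI-1640 and 19.04% ± 2.29 with HPLM, and in HT29 it was 26.1% ± 5.95 (19.3% in library 1) and 33.8% ± 4.56. The lung markers NKX2-1, SFTPA1, SFTPB and NAPSA summed to 1802 to 1849 TPM in H441 in RPMI-1640 and to 778 to 840 TPM in HPLM, and to at most 5.40 TPM in HT29. In H441 that drop was in SFTPA1 (mean 1452 to 447 TPM), while NKX2-1 (174 to 162 TPM) and NAPSA (201 to 193 TPM) moved little and SFTPB was higher (2.08 to 5.78 TPM). The colonic markers KRT20, CDX1, CDX2 and VIL1 summed to 891 to 1599 TPM in HT29 with CDX1 under 1 TPM, and to at most 4.09 TPM in H441. Of fibroblast markers, 2 of 6 reached 1 TPM in H441 (COL1A1 and LUM, the list summing to 59.8 to 64.2 TPM in RPMI-1640 and 71.8 to 77.4 TPM in HPLM). The leukocyte markers summed to 13.6 to 21.6 TPM in H441, and in HT29 to 2039 to 4378 TPM in RPMI-1640 and 1783 to 2108 TPM in HPLM, nearly all of it LYZ. Of 4 endothelial markers, PECAM1, CDH5 and VWF stayed under 1 TPM in H441, where the list summed to 19.6 to 21.9 TPM, and the list reached at most 1.32 TPM in HT29. Fits without mitochondrially encoded genes are given below, and the part of the marker shifts in the results was not tested.

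In H441, HPLM was accompanied by lower levels of many pathway genes and higher levels of carriers and hexokinases at its entry and of 1 lactate carrier. Of the 37 members, 18 fell (48.6%, against 11.3% of all 16458 genes tested) and 6 rose (16.2%, against 33.7%). The 6 that rose were the glucose carriers SLC2A1 and SLC2A3, the hexokinases HK2 and HKDC1, the regulator PFKFB3 and the lactate carrier SLC16A1. The 18 that fell were SLC2A12, GPI, PFKFB4, FBP1, ALDOA, ALDOC, TPI1, GAPDH, PGK1, PGAM1, ENO2, PKM, LDHA, LDHB, PDK3, PDK4, PDHB and SLC16A3. The median change of the members was -0.21, and that of all genes was 0.14. In bulk RNA, fewer cells with a transcript and less of it per cell cannot be told apart. HPLM libraries lay wholly below RPMI-1640 libraries for 23 members (15.6% of all genes tested did so) and wholly above for 9 (42.1% of all genes).

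The H441 count depends on the scale. With trimmed-mean (TMM) scaling of the TPM values, which brought the median of all genes to 0.02, 26 members fell (21.2% of all genes did) and 5 rose (23.5%). All 18 stayed lowered, HK1, PFKL, PFKM, PFKFB2, ENO1, PDK2, PDHA1 and PGM1 joined them, and PFKFB3 no longer passed (0.10, adjusted p = 0.153). edgeR on the recovered reads gave 27 lowered members (27.2% of all genes) and 6 raised (28.4%). With limma on TPM without mitochondrially encoded genes, 24 members fell (19.4% of all genes) and 5 rose (23.1%). Leaving out a library left between 11 and 20 members lowered (7.12% to 9.61% of all genes). Of the 18, 11 passed in every such fit, while GPI, ALDOA, GAPDH, PGK1, ENO2, PDK4 and PDHB did not. PFKFB3 passed only without RPMI-1640 library 2.

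In HT29, lowered members outnumbered raised ones. With all 6 libraries, 7 of 36 tested members fell (19.4%, against 3.58% of all 16352 genes tested) and none rose by limma (2.53% of all genes did), while 1, PFKFB2, was raised at an unadjusted p under 0.05. The 7 were GPI, PFKFB3, FBP1, ALDOA, ALDOC, PDK1 and PDK3. Without RPMI-1640 library 1, 19 fell (21.4% of all genes did) and PFKFB2 alone rose (17.8% of all genes); the 7 were among the 19, and HK1, HK2, SLC2A12, PFKFB4, TIGAR, PGK1, ENO2, LDHA, PDK4, PDHA1, SLC16A1 and SLC16A3 joined them. Leaving out any other single library left at most 1 lowered member, in fits that called at most 93 lowered genes among all those tested. TMM scaling of all 6 libraries gave 8 lowered members (4.16% of all genes) and 0 raised (5.18%): HK1 and HK2 joined, and PDK1 was lost. The median change of the members was -0.65 with all libraries, against -0.07 for all genes, and -0.44 without library 1, against a median of all genes near 0. edgeR on recovered reads gave 11 lowered members (5.65% of all genes), the 7 with HK1, HK2, PFKFB4 and PDHA1, and 1 raised (5.17%), PFKFB2 (0.57, adjusted p = 0.03). The authors' deposited table, also with all libraries, had 18 lowered (12% of all genes) and 1 raised (9.25%). Without library 1, a fit added after its role was seen, edgeR gave 23 lowered (30.9%) and 5 raised (30.6%).

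**Figure D1:**
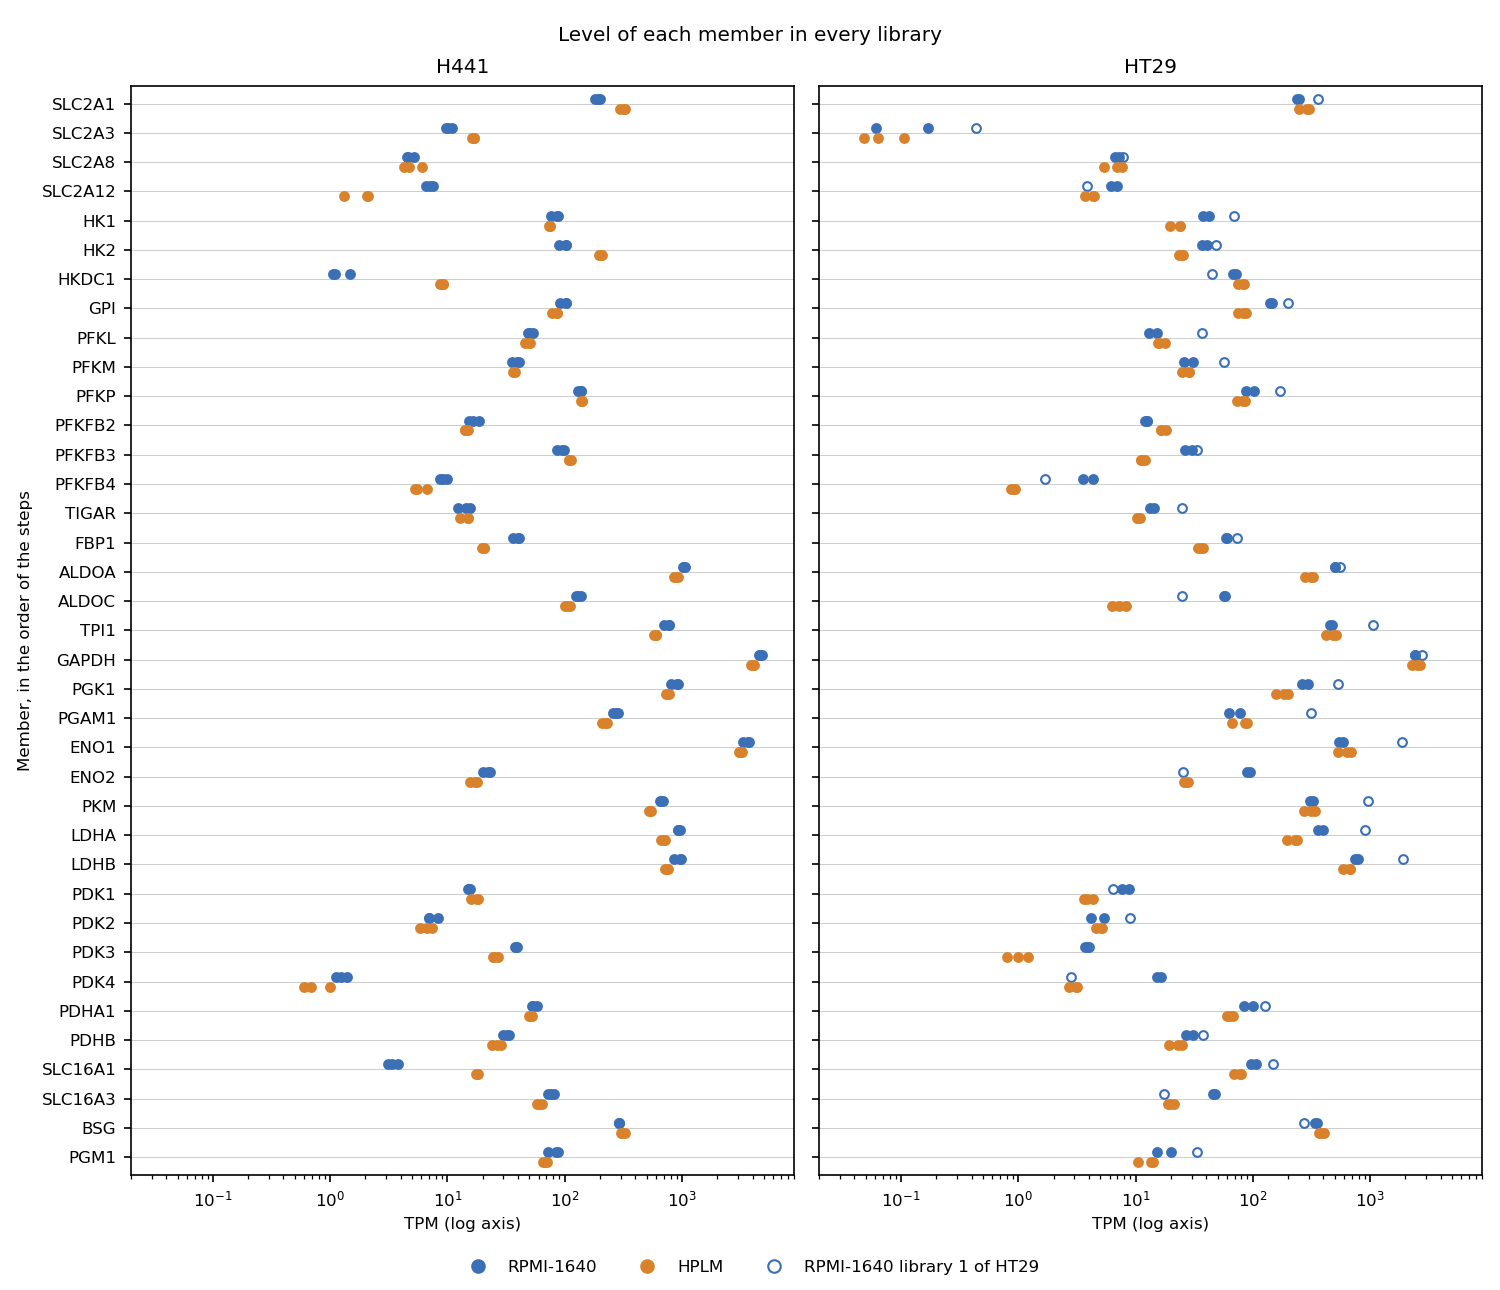
TPM of each of the 37 members (log axis) in each of the 12 libraries, H441 at left and HT29 at right, in the order of the steps; blue points are RPMI-1640, orange points HPLM, and the open point is RPMI-1640 library 1 of HT29. In H441 the HPLM points of SLC16A1 and HKDC1 lie far above their RPMI-1640 points, and in HT29 those of ALDOC, PDK3 and PFKFB3 lie below, with the open point often away from libraries 2 and 3.

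The promoters of 4 members are shown because LDHA and ALDOC were lower in HPLM in both lines, whereas HK2 and PFKFB3 were higher in H441 and lower in HT29. By limma on TPM as deposited, the HT29 falls of LDHA and HK2 passed without library 1 and not with it. Each is a RefSeq window of GRCh38.p14, read 5′ to 3′ from 250 bases before to 50 bases after an annotated start, with capitals marking ACGTG on either strand, the core of the hypoxia response element, or CACGTG, an E-box that also holds the core. The windows are chr11:18394313-18394612 (plus strand) for LDHA, chr17:28576846-28577145 (minus strand) for ALDOC, chr2:74834920-74835219 (plus strand, the downstream of 2 HK2 windows) for HK2 and chr10:6202682-6202981 (plus strand, a downstream start) for PFKFB3.
LDHA: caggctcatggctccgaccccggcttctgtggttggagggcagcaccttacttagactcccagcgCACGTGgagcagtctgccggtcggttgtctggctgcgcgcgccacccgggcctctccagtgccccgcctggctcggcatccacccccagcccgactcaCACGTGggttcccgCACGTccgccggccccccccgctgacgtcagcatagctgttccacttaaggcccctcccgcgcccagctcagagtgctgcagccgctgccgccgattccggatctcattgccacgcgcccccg
ALDOC: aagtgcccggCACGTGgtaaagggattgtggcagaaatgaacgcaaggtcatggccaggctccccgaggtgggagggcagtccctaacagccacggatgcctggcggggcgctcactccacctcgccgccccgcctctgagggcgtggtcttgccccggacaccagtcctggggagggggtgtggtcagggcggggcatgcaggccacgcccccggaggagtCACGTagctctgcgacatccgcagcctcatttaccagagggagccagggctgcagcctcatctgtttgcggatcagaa
HK2: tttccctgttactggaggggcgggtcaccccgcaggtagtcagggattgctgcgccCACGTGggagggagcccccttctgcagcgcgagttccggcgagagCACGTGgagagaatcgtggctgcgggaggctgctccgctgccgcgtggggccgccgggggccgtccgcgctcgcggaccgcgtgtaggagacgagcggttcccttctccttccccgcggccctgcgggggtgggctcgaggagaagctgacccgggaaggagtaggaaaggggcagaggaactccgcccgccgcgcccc
PFKFB3: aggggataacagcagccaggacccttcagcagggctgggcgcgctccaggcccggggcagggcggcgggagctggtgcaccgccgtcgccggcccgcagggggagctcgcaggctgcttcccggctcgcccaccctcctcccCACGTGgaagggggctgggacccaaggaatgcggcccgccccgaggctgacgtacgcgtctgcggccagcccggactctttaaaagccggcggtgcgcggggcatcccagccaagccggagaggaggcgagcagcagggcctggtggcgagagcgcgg
LDHA has 2 E-boxes and 1 further core, ALDOC has 1 of each, HK2 has 2 E-boxes and PFKFB3 has 1, so both pairs hold these letters. These windows were picked for display because they hold them: the second windows of LDHA and PFKFB3 have no ACGTG, and the second of HK2 has 2 cores and no E-box. That both pairs hold the letters therefore follows from the choice. Of the other members lowered in both lines with all libraries, FBP1 has no ACGTG in its window, while GPI, ALDOA and PDK3 have it. Windows were found for 34 members, 65 windows in all; SLC2A3, PFKFB2 and SLC16A1 had none in the table. ACGTG on either strand stood in 24 of the 65 (36.9%), against 21.4% of all 35116 windows, and CACGTG in 9 (13.8%), against 7.26%. Counted by gene, 20 of 34 members (58.8%) held ACGTG in a window, against 24.9% of 27305 genes, and a gene with more windows has more chances to hold it. A match describes the letters only.

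The main glucose carrier rose in H441, and no change of it was detected in HT29. SLC2A1 (GLUT1, ENSG00000117394, chromosome 1 from 42925375 to 42959176) measured 194, 199 and 182 TPM in the H441 RPMI-1640 libraries and 321, 298 and 326 TPM in HPLM. All HPLM libraries were above all RPMI-1640 libraries, a rise of 0.71 ± 0.06 (adjusted p = 0.000672). In HT29, SLC2A1 stood at 361, 246 and 239 TPM in RPMI-1640 and 304, 291 and 249 TPM in HPLM. The groups overlapped through library 1, and the change was 0.02 ± 0.21 (adjusted p = 0.969), or 0.21 ± 0.12 (adjusted p = 0.223) without it.

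SLC2A3 (GLUT3), a carrier of high affinity for glucose, was a minor carrier of H441 and rose there too. It measured 10.1, 10.97 and 9.80 TPM in RPMI-1640 and 16.1, 16.8 and 16.7 TPM in HPLM, a change of 0.64 ± 0.06 (adjusted p = 0.000784). HT29 had almost none: 0.436, 0.17 and 0.0606 TPM in RPMI-1640 and 0.0641, 0.0485 and 0.106 TPM in HPLM, under the filter of 1 TPM, so it was not tested in that line alone. Its near-identical copy SLC2A14 had at most 2.58% of the SLC2A3 level in H441.

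SLC2A12 (GLUT12) moved against SLC2A1 in H441. Its libraries read 7.17, 7.56 and 6.58 TPM in RPMI-1640 and 2.08, 2.11 and 1.31 TPM in HPLM, without overlap, and it fell (-1.53 ± 0.13, adjusted p = 0.000721). HT29 held 3.88, 6.95 and 6.18 TPM in RPMI-1640 and 4.33, 4.45 and 3.67 TPM in HPLM, where library 1 lay within the HPLM range. The HT29 change was -0.35 ± 0.22 (adjusted p = 0.388) with all libraries, and without library 1 it fell (-0.56 ± 0.12, adjusted p = 0.0146). SLC2A8 (GLUT8), a carrier of internal membranes, was low in both lines, at 4.50 to 5.17 TPM and 4.25 to 6.05 TPM in H441 and 6.71 to 7.77 TPM and 5.41 to 7.61 TPM in HT29, with overlapping groups and changes of 0.05 ± 0.12 (adjusted p = 0.745), or -0.07 after TMM scaling, and -0.11 ± 0.17 (adjusted p = 0.729), or -0.07 without library 1.

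At the hexokinase step HK2 transcripts moved in opposite directions in the lines, both of which also held HK1. HK2, the inducible hexokinase of many tumours that can dock on mitochondria, measured 103, 102 and 89.3 TPM in H441 RPMI-1640 libraries and 209, 197 and 206 TPM in HPLM. The HPLM libraries were all higher, and HK2 rose by 1.05 ± 0.07 (adjusted p = 0.000386). In HT29, HK2 read 48.2, 40.4 and 36.8 TPM in RPMI-1640 and 25.4, 24.97 and 23.5 TPM in HPLM, with every HPLM library lower. The HT29 change missed the threshold with all libraries, at -0.73 ± 0.16 (adjusted p = 0.0503), and passed it as a fall without library 1, at -0.63 ± 0.10 (adjusted p = 0.00617), and with all libraries after TMM scaling (-0.63, adjusted p = 0.0233) or with edgeR (-0.65, adjusted p = 0.0155). HK2 lies on chromosome 2 from 74833981 to 74893359, and its downstream promoter window is printed above.

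HKDC1, a hexokinase domain protein found in epithelia of the gut, was nearly absent from H441 in RPMI-1640 and appeared in HPLM. Its values were 1.06, 1.10 and 1.47 TPM in RPMI-1640 and 8.59, 9.19 and 9.22 TPM in HPLM, a rise of 2.18 ± 0.08 (adjusted p = 0.000125), the largest of any member in H441. HT29 held far more of it, 45.1, 71.1 and 68.1 TPM in RPMI-1640 and 83.3, 82.6 and 74.7 TPM in HPLM. There the HPLM libraries were higher without overlap, and the change did not pass (with library 1 0.40 ± 0.21, adjusted p = 0.297; without it 0.20 ± 0.11, adjusted p = 0.178). HK1, the broadly expressed hexokinase whose gene follows HKDC1 on chromosome 10 (HKDC1 ends at 69267559 and HK1 starts at 69269984, both on the plus strand), did not move with it. HK1 read 86.0, 88.3 and 76.7 TPM and 74.6, 74.9 and 73.7 TPM in H441 (-0.16 ± 0.07, adjusted p = 0.0929) and 69.7, 42.4 and 37.7 TPM and 23.9, 23.8 and 19.5 TPM in HT29 (-1.07 ± 0.26, adjusted p = 0.0634). Without library 1 it fell in HT29 (-0.81 ± 0.13, adjusted p = 0.00599).

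GPI, which turns glucose 6-phosphate into fructose 6-phosphate, fell in both lines. H441 libraries read 102, 102 and 90.7 TPM in RPMI-1640 and 85.3, 78.5 and 86.0 TPM in HPLM (-0.23 ± 0.07, adjusted p = 0.0415), and this call was lost when any of 5 of the 6 libraries was left out. HT29 libraries read 199, 147 and 140.3 TPM in RPMI-1640 and 88.0, 82.2 and 74.8 TPM in HPLM, a fall, -0.97 ± 0.19 (adjusted p = 0.0386), or -0.81 ± 0.11 (adjusted p = 0.00355) without library 1.

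The phosphofructokinase subunits did not pass limma on TPM as deposited in either line, but passed as falls in H441 on other scales. PFKP, the platelet type, was the most abundant, at 129 to 138 TPM in RPMI-1640 and 138 to 139.9 TPM in HPLM in H441. PFKL, the liver type, and PFKM, the muscle type, stood between 35.8 and 53.6 TPM in H441, with changes of -0.07 ± 0.06 (adjusted p = 0.446) and -0.06 ± 0.06 (adjusted p = 0.494). The H441 change of PFKP was 0.05 ± 0.05 (adjusted p = 0.424) and turned to -0.09 after TMM scaling. After that scaling PFKL (-0.21, adjusted p = 0.0362) and PFKM (-0.20, adjusted p = 0.0266) passed as falls in H441. edgeR called all 3 lowered there: PFKL (-0.21, adjusted p = 0.000144), PFKM (-0.21, adjusted p = 0.000371) and PFKP (-0.10, adjusted p = 0.0186). In HT29, library 1 held 172 TPM of PFKP, 36.6 of PFKL and 56.6 of PFKM, all above the other 5 libraries. The HT29 changes were -0.52, -0.25 and -0.38 with all libraries, and without library 1 they were -0.24, 0.19 and -0.05, none past the threshold.

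Of the enzymes that make and remove fructose 2,6-bisphosphate, PFKFB3 fell in HT29 and PFKFB4 in H441. PFKFB3, the isoform with the highest kinase activity relative to its phosphatase activity, read 95.7, 98.8 and 85.3 TPM in H441 in RPMI-1640 and 109, 108 and 114 TPM in HPLM. That is a small rise, 0.25 ± 0.07 (adjusted p = 0.0338), which edgeR kept (0.10, adjusted p = 0.0346) and which did not pass after TMM scaling or in the authors' deposited table (log2 fold change 0.09, adjusted p = 0.0932). In HT29, PFKFB3 dropped from 33.2, 30.1 and 26.5 TPM to 11.02, 12.1 and 11.1 TPM, with no overlap and little effect of library 1. The change was -1.32 ± 0.15 (adjusted p = 0.0125), and -1.24 ± 0.11 (adjusted p = 0.000934) without library 1.

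PFKFB2, the heart-type isoform, went the other way in HT29. Its levels were 12.5, 12.4 and 11.98 TPM in RPMI-1640 and 18.3, 16.3 and 16.5 TPM in HPLM, all higher, with a change of 0.44 ± 0.14 (adjusted p = 0.113) that passed as a rise without library 1 (0.45 ± 0.10, adjusted p = 0.0189). In H441 its levels were 18.7, 16.7 and 15.3 TPM and 14.1, 14.1 and 15.1 TPM (-0.21 ± 0.08, adjusted p = 0.0835). PFKFB4, an isoform induced by hypoxia, read 8.57, 9.10 and 9.84 TPM in H441 in RPMI-1640 and 5.55, 6.76 and 5.29 TPM in HPLM, a fall, -0.57 ± 0.10 (adjusted p = 0.00632). In HT29 it read 1.68, 3.57 and 4.31 TPM in RPMI-1640 and 0.927, 0.93 and 0.871 TPM in HPLM, a change of -1.07 ± 0.27 (adjusted p = 0.0706) that passed as a fall without library 1 (-1.37 ± 0.11, adjusted p = 0.00071).

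Among the phosphatases that oppose glycolysis, FBP1 fell in both lines. FBP1 returns fructose 1,6-bisphosphate to fructose 6-phosphate in gluconeogenesis. H441 libraries held 40.1, 40.8 and 36.3 TPM in RPMI-1640 and 19.7, 20.7 and 20.7 TPM in HPLM (-0.91 ± 0.06, adjusted p = 0.000386), and HT29 libraries 72.6, 59.1 and 60.1 TPM and 37.7, 36.5 and 33.9 TPM (-0.81 ± 0.15, adjusted p = 0.0367; -0.71 ± 0.10, adjusted p = 0.00384, without library 1). The groups did not overlap in either line, and the difference between the lines' responses was 0.10 ± 0.15 (adjusted p = 0.703). On other scales that difference was larger: 0.34 after TMM scaling (adjusted p = 0.054), where it did not pass. It passed without mitochondrial genes (0.39, adjusted p = 0.0404) and with edgeR (0.38, adjusted p = 0.0336), as a smaller fall in HT29. TIGAR, a phosphatase of fructose 2,6-bisphosphate induced by p53, stood at 12.4 to 15.7 TPM and 12.8 to 14.9 TPM in H441 (0.01 ± 0.10, adjusted p = 0.968; -0.13 after TMM scaling). In HT29 it stood at 13.2 to 24.9 TPM and 10.3 to 10.9 TPM (-0.63 ± 0.25, adjusted p = 0.187), and passed as a fall without library 1 (-0.36 ± 0.10, adjusted p = 0.0344).

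**Figure D2:**
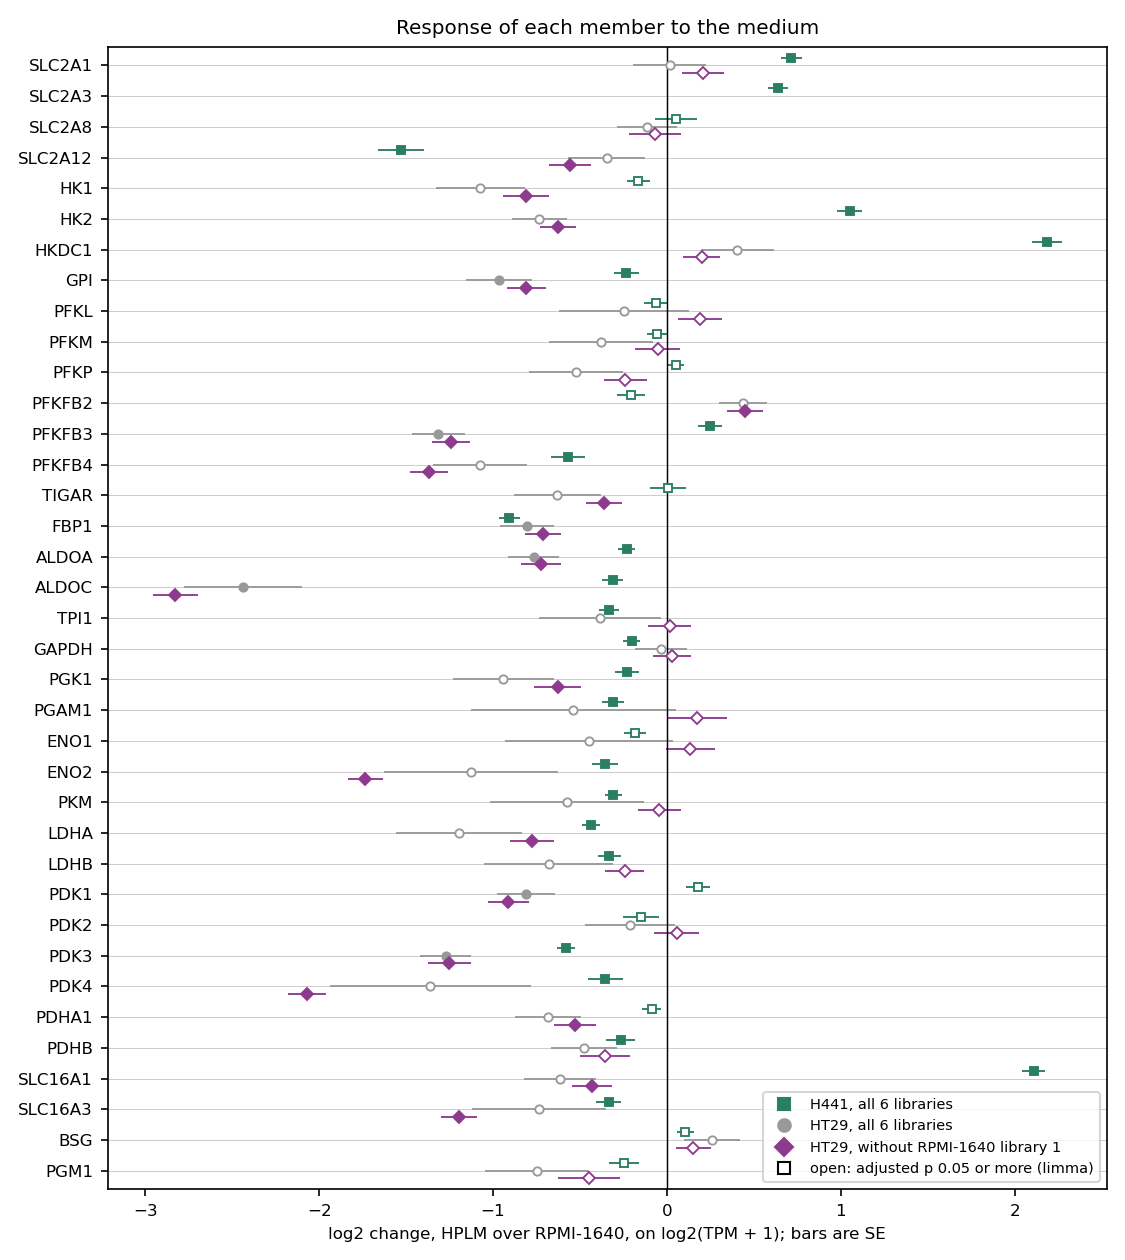
log2 change of each member, HPLM over RPMI-1640 on log2(TPM + 1), with SE bars: green squares H441, grey circles HT29 with all 6 libraries, purple diamonds HT29 without RPMI-1640 library 1; open symbols have a limma adjusted p of 0.05 or more. SLC16A1 (2.11), HKDC1 (2.18) and HK2 (1.05) stand to the right in H441, and ALDOC (-2.44 with all libraries) stands farthest to the left in HT29.

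Aldolase C carried the largest change of any member in HT29. ALDOC, the brain-type aldolase (ENSG00000109107, chromosome 17 from 28573115 to 28577264), read 25.01, 58.1 and 56.5 TPM in the RPMI-1640 libraries and 8.23, 7.20 and 6.34 TPM in HPLM. Library 1 was below libraries 2 and 3 and still above every HPLM library. The change was -2.44 ± 0.34 (adjusted p = 0.0175), and -2.83 ± 0.13 (adjusted p = 0.000203) without library 1. In H441, ALDOC held 126, 138 and 130.1 TPM in RPMI-1640 and 105, 101 and 110.0 TPM in HPLM, a smaller fall, -0.31 ± 0.06 (adjusted p = 0.0087).

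ALDOA, the main aldolase of both lines, fell in both. Its H441 levels were 1034, 1065 and 1019 TPM in RPMI-1640 and 879.9, 855 and 921 TPM in HPLM (-0.23 ± 0.05, adjusted p = 0.0145). In HT29 they were 550.3, 506 and 505 TPM and 327, 315 and 277 TPM (-0.77 ± 0.15, adjusted p = 0.0367), with library 1 close to the other 2 RPMI-1640 libraries. This is a member whose HT29 change was nearly as large without library 1 (-0.72).

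Of the 7 enzymes from triose phosphate to pyruvate, 6 fell in H441, ENO2 and 5 others (11.3% of all genes fell). TPI1 (triose phosphate isomerase) changed by -0.33 ± 0.06 (adjusted p = 0.00726), GAPDH, the dehydrogenase that makes NADH, by -0.20 ± 0.05 (adjusted p = 0.0182), and PGK1, the first kinase that yields ATP, by -0.23 ± 0.07 (adjusted p = 0.0396). PGAM1 (phosphoglycerate mutase) changed by -0.31 ± 0.06 (adjusted p = 0.0112) and PKM, the pyruvate kinase, by -0.31 ± 0.05 (adjusted p = 0.00455). For these 5 the HPLM libraries lay below every RPMI-1640 library, as for 15.6% of all genes tested. The calls of GAPDH and PGK1 were lost on leaving out some single libraries. GAPDH was the most abundant member, at 4555 to 4779 TPM in H441 in RPMI-1640 and 3920.3 to 4130.3 TPM in HPLM. ENO1, the main enolase, read 3642, 3742 and 3324 TPM and 3154, 3043 and 3226 TPM, and its change of -0.18 ± 0.06 (adjusted p = 0.0599) passed on other scales (-0.33 and adjusted p = 0.00252 after TMM scaling).

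In HT29 these 5 genes and ENO1 gave no call by limma, except PGK1 without library 1. GAPDH stood at 2419.8 to 2758 TPM in RPMI-1640 and 2282 to 2664 TPM in HPLM, overlapping, with a change of -0.03 ± 0.15 (adjusted p = 0.919) that was 0.07 after TMM scaling and 0.03 without library 1. PGK1 read 534, 294 and 263 TPM in RPMI-1640 and 199, 185 and 158 TPM in HPLM (-0.94 ± 0.29, adjusted p = 0.112), and without library 1 it fell (-0.63 ± 0.14, adjusted p = 0.0149). TPI1, PGAM1, ENO1 and PKM were each far higher in library 1 (1066, 311, 1875 and 954 TPM) than in libraries 2 and 3 (454 and 471, 78.4 and 62.8, 583 and 538, and 326 and 307 TPM in that order). Their HT29 changes were -0.38, -0.54, -0.45 and -0.57 with all libraries, and without library 1 they were 0.02, 0.17, 0.13 and -0.04, none past the threshold.

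ENO2, the neuronal enolase, departed from ENO1 in HT29. It read 25.2, 95.2 and 88.7 TPM in RPMI-1640 and 27.9, 25.9 and 27.0 TPM in HPLM. Libraries 2 and 3 were far above HPLM while library 1 was not, so the change with all libraries was -1.13 ± 0.50 (adjusted p = 0.225) and without library 1 a fall, -1.74 ± 0.10 (adjusted p = 0.000343). In H441, ENO2 fell from 22.4, 22.9 and 20.2 TPM to 17.2, 15.6 and 17.8 TPM (-0.36 ± 0.08, adjusted p = 0.013), a call lost without RPMI-1640 library 1. ENO1 in HT29 HPLM libraries stood at 684, 641 and 531 TPM.

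Both lactate dehydrogenase subunits fell in H441, and LDHA also fell in HT29 without library 1. LDHA encodes the subunit that favours making lactate (ENSG00000134333, chromosome 11 from 18394388 to 18408425, promoter above). It held 929, 957 and 918 TPM in H441 in RPMI-1640 and 712, 660.4 and 698 TPM in HPLM, a fall, -0.44 ± 0.05 (adjusted p = 0.00174). HT29 held 902, 397 and 361 TPM in RPMI-1640 and 238, 229 and 196 TPM in HPLM, with every HPLM library lower. The HT29 change was -1.19 ± 0.36 (adjusted p = 0.105) with library 1 and passed as a fall without it (-0.78 ± 0.13, adjusted p = 0.00595). The authors' deposited table had LDHA lowered in HT29 with all libraries (-1.20, adjusted p = 0.00363). LDHB, whose subunit favours lactate oxidation, fell in H441 from 963, 973 and 856 TPM to 754, 717 and 745 TPM (-0.33 ± 0.07, adjusted p = 0.011). In HT29 it read 1897, 742 and 792 TPM and 680.0, 672 and 593 TPM, and its change passed neither with library 1 (-0.68 ± 0.37, adjusted p = 0.317) nor without it (-0.24 ± 0.11, adjusted p = 0.136).

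Of the 4 kinases that switch off pyruvate dehydrogenase, PDK3 fell in both lines. It read 37.8, 39.2 and 38.6 TPM in H441 in RPMI-1640 and 26.8, 24.7 and 24.7 TPM in HPLM (-0.58 ± 0.05, adjusted p = 0.000802). In HT29 it read 3.99, 3.68 and 3.85 TPM and 1.22, 0.998 and 0.805 TPM (-1.27 ± 0.15, adjusted p = 0.0125), with library 1 beside libraries 2 and 3. The HT29 value was nearly as large without library 1 (-1.25).

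PDK1, a target of hypoxia-inducible factor, fell in HT29, and its response there differed from that in H441. HT29 libraries held 6.43, 8.83 and 7.67 TPM in RPMI-1640 and 4.30, 3.83 and 3.61 TPM in HPLM (-0.81 ± 0.17, adjusted p = 0.0441), H441 libraries 15.3, 15.5 and 14.8 TPM and 18.4, 15.9 and 17.8 TPM (0.18 ± 0.07, adjusted p = 0.0758), and the difference between the responses was -0.99 ± 0.17 (adjusted p = 0.00387). Without library 1 the HT29 change was -0.91 ± 0.12 (adjusted p = 0.00281). With all libraries its call was lost after TMM scaling (-0.73, adjusted p = 0.0665) and on leaving out any of the other 5 libraries. PDK4, which rises on fasting and fatty acid use in many tissues, was low in H441, at 1.38, 1.13 and 1.24 TPM and 1.01, 0.604 and 0.687 TPM, where it fell (-0.35 ± 0.10, adjusted p = 0.0328; lost without any of 5 of the 6 libraries). In HT29 it read 2.81, 15.1 and 16.3 TPM in RPMI-1640 and 3.15, 3.08 and 2.71 TPM in HPLM. Library 1 was at the HPLM level, and the change was -1.36 ± 0.58 (adjusted p = 0.208) with it and -2.07 ± 0.11 (adjusted p = 0.000276) without it, the latter a fall. PDK2 read 6.99, 8.39 and 6.99 TPM and 6.64, 5.84 and 7.40 TPM in H441 and 9.0, 5.36 and 4.14 TPM and 5.19, 5.04 and 4.61 TPM in HT29, overlapping in both lines, with changes of -0.15 ± 0.11 (adjusted p = 0.296) in H441 and of -0.21 ± 0.26 (adjusted p = 0.668) in HT29, or 0.06 without library 1.

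Of the subunits of pyruvate dehydrogenase itself, PDHB gave a weak call in H441 and PDHA1 fell in HT29 without library 1. PDHA1, the subunit the kinases phosphorylate, read 53.1, 53.3 and 57.6 TPM and 52.5, 51.5 and 50.1 TPM in H441 (-0.09 ± 0.05, adjusted p = 0.237). In HT29 it read 128, 84.7 and 100.01 TPM and 67.5, 63.3 and 60.2 TPM, a change of -0.68 ± 0.19 (adjusted p = 0.0896) that passed as a fall without library 1 (-0.53 ± 0.12, adjusted p = 0.0179). PDHB read 33.5, 32.4 and 29.6 TPM and 26.6, 23.8 and 28.4 TPM in H441, a fall, -0.27 ± 0.08 (adjusted p = 0.0482) that was lost on leaving out any 1 library. Its HT29 levels were 37.4, 26.8 and 30.7 TPM and 25.1, 22.8 and 19.2 TPM (-0.48 ± 0.19, adjusted p = 0.184; -0.35 ± 0.14, adjusted p = 0.099, without library 1).

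Among lactate carriers, SLC16A1 rose in H441 and was lower in HPLM in HT29. SLC16A1 (MCT1, ENSG00000155380, chromosome 1 from 112911847 to 112957013) carries lactate and pyruvate either way across the membrane. H441 had 3.36, 3.76 and 3.10 TPM in RPMI-1640 and 18.4, 18.0 and 17.6 TPM in HPLM, a rise of 2.11 ± 0.07 (adjusted p = 8.61e-05) and a 5.27-fold ratio of mean TPM. HT29 had 149.5, 107 and 96.2 TPM in RPMI-1640 and 79.3, 77.4 and 68.7 TPM in HPLM, every HPLM library lower. The HT29 change was -0.62 ± 0.21 (adjusted p = 0.129) with all libraries, and a fall, -0.43 ± 0.12 (adjusted p = 0.0311) without library 1. The authors' deposited table had it lowered in HT29 with all libraries (-0.55, adjusted p = 0.00552).

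SLC16A3 (MCT4), the carrier suited to exporting lactate from highly glycolytic cells, fell in H441. Its libraries read 76.7, 81.7 and 71.9 TPM in RPMI-1640 and 57.7, 60.1 and 64.1 TPM in HPLM (-0.34 ± 0.07, adjusted p = 0.0124). In HT29 they read 17.3, 45.4 and 48.0 TPM and 21.1, 19.7 and 18.8 TPM, with library 1 below every HPLM library. The change was -0.74 ± 0.39 (adjusted p = 0.299) with it and a fall, -1.20 ± 0.10 (adjusted p = 0.000897) without it. BSG (basigin), which brings both carriers to the surface, stood at 289 to 292 TPM and 305 to 327 TPM in H441 (0.11 ± 0.05, adjusted p = 0.133; -0.04 after TMM scaling) and 274 to 352 TPM and 363 to 403 TPM in HT29 (0.26 ± 0.16, adjusted p = 0.371; 0.15 without library 1). PGM1, which links glycolysis with glycogen, stood at 72.7 to 88.6 TPM and 65.4 to 71.4 TPM in H441 (-0.25 ± 0.09, adjusted p = 0.0623) and 15.3 to 33.4 TPM and 10.4 to 14.1 TPM in HT29 (-0.74 ± 0.30, adjusted p = 0.19; -0.45 without library 1).

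Because TPM is per length, isoenzyme levels can be added and each one's share followed. Of 44 shares compared (22 per line), the groups did not overlap for 30, of which 18 were in H441 and 12 in HT29. An exact two-sided permutation test of 3 against 3 libraries cannot go below p = 0.1, which those 30 reached (adjusted p = 0.147), so none can pass the threshold in this design. HK2 made up 54.1%, 53.4% and 53.3% of the 3 hexokinases of H441 in RPMI-1640 and 71.6%, 70.1% and 71.3% in HPLM. HKDC1 was the leading hexokinase in HT29 in HPLM, at 62.8%, 62.9% and 63.5%, against 27.7%, 46.2% and 47.8% in RPMI-1640. In H441 the HKDC1 share was at most 3.27%.

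Shares also moved within the PFKFB family, the lactate carriers and lactate dehydrogenase. PFKFB2 went from 26.4%, 26.9% and 28.0% of the PFKFB sum in HT29 in RPMI-1640 to 60.5%, 55.7% and 58.0% in HPLM, and PFKFB3 from 65.8% ± 4.09 to 38.8% ± 2.34 (SD, n = 3). In H441, PFKFB3 stayed the leading isoform, at 78.1% ± 1.07 and 84.5% ± 0.569. SLC16A1 was 4.19%, 4.40% and 4.14% of the carrier pair of H441 in RPMI-1640 and 24.2%, 23.0% and 21.5% in HPLM, while in HT29 it was 89.6%, 70.1% and 66.7% and 79.0%, 79.7% and 78.6%, with library 1 the highest. LDHA was 50.1% ± 1.41 of H441 lactate dehydrogenase in RPMI-1640 and 48.3% ± 0.308 in HPLM, groups without overlap. In HT29 the LDHA share was 32.8% ± 1.83 and 25.4% ± 0.564, also without overlap and with library 1 between the others.

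Among the pyruvate dehydrogenase kinases, PDK3 led in H441, at 61.7% ± 0.802 in RPMI-1640 and 50.7% ± 1.84 in HPLM, while PDK1 went from 24.4% ± 0.431 to 34.6% ± 0.744. In HT29, PDK4 was 12.6%, 45.8% and 51.0% in RPMI-1640 and 22.7%, 23.8% and 23.1% in HPLM, so its share in library 1 lay under all HPLM libraries and that in libraries 2 and 3 above them. Aldolase C was 4.35%, 10.3% and 10.1% of aldolase in HT29 in RPMI-1640 and 2.45%, 2.23% and 2.24% in HPLM, against 11.2% ± 0.313 and 10.7% ± 0.055 in H441.

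**Figure D3:**
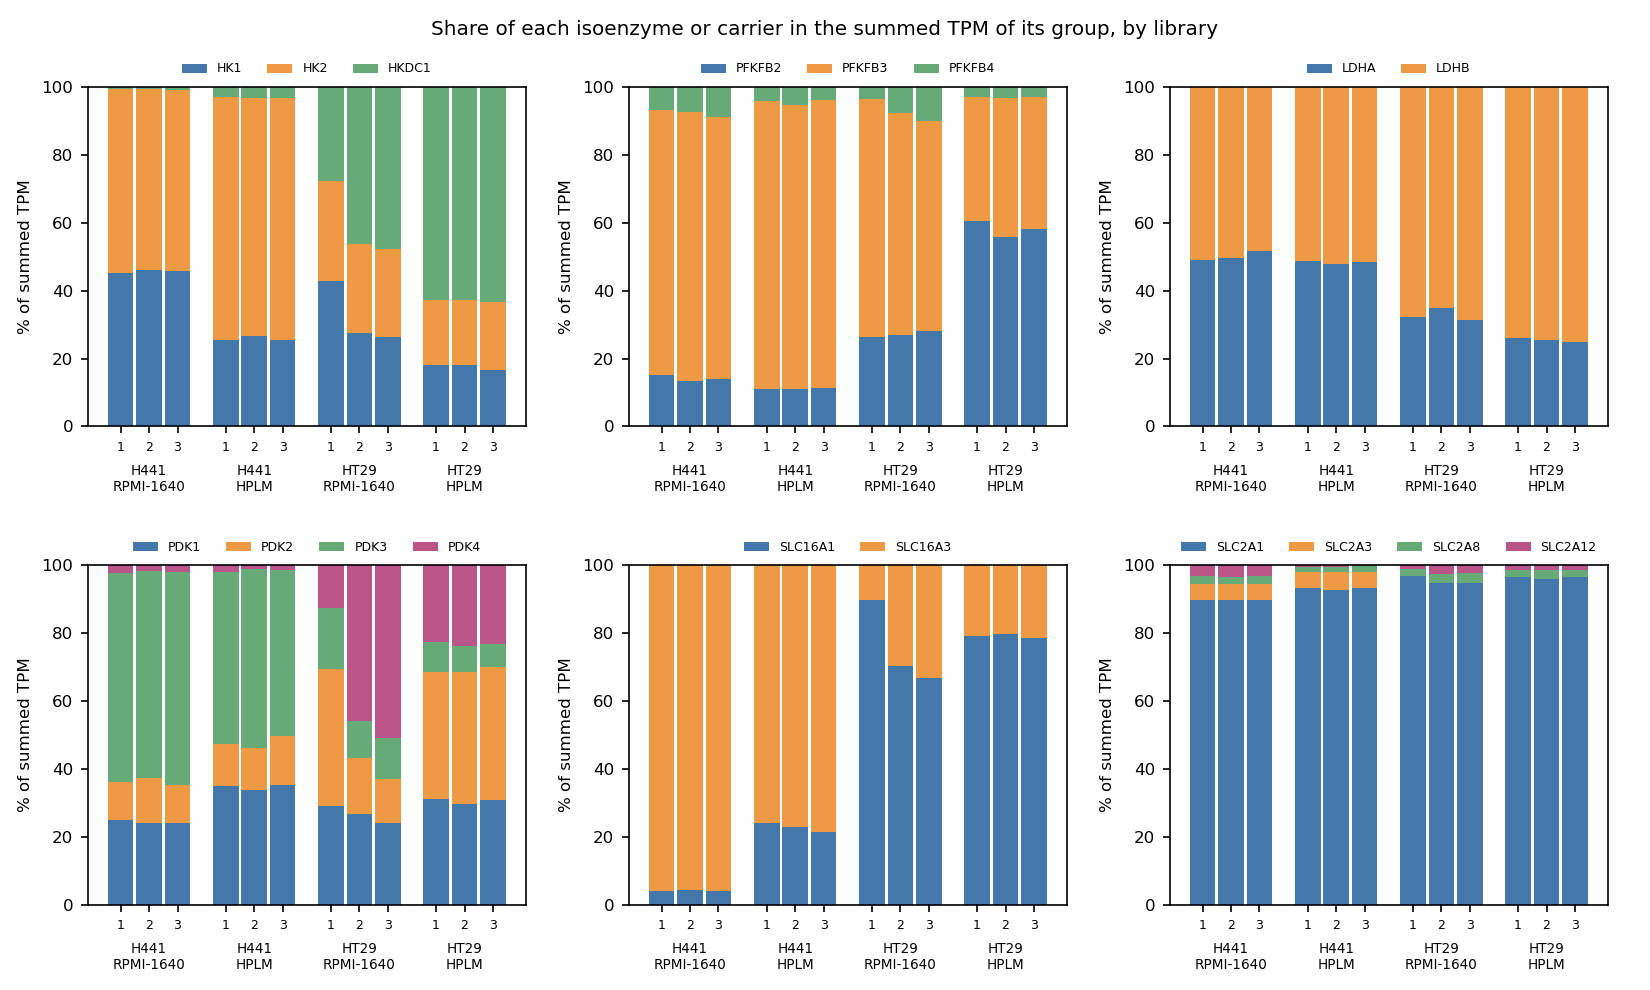
Share in percent of each isoenzyme in the summed TPM of its group, by line and medium; each panel is an isoenzyme group and each stacked bar 1 library, numbered 1 to 3. The mean share of HK2 is 53.6% of hexokinase in RPMI-1640 and 71.0% in HPLM in H441, that of HKDC1 is 63.0% in HT29 in HPLM, and that of SLC16A1 is 4.24% and 22.9% of the carrier pair in H441.

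All 37 members together made up 1.53% ± 0.062 of H441 TPM with RPMI-1640 and 1.34% ± 0.037 with HPLM. In HT29 they made up 1.27%, 0.744% and 0.732% in the RPMI-1640 libraries and 0.713%, 0.676% and 0.601% in HPLM, where library 1 alone is far from the rest. The 16 enzymes from hexokinase to pyruvate kinase gave 1.25% ± 0.051 and 1.09% ± 0.030 in H441. The same 16 gave 0.873%, 0.527% and 0.512% in HT29 in RPMI-1640 and 0.481% ± 0.043 in HPLM.

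The response to HPLM differed between the lines for 12 members by an interaction term over all 12 libraries. In HT29 it was lower for 10 (27.03% of 37, against 12% of all 18703 genes tested) and higher for SLC2A12 and PFKFB2 (5.41%, against 3.12%). The 10 were SLC2A3, HK2, HKDC1, GPI, PFKFB3, ALDOA, ALDOC, PDK1, PDK3 and SLC16A1. SLC16A1 differed most, by -2.72 ± 0.21 (adjusted p = 8.09e-05), followed by ALDOC at -2.13 ± 0.37 (adjusted p = 0.00465), HK2 at -1.78 ± 0.16 (adjusted p = 0.00016) and HKDC1 at -1.78 ± 0.23 (adjusted p = 0.000988). The test takes 1 variance per gene for both lines although HT29 in RPMI-1640 spread more. The median difference of all genes was -0.21 on TPM as deposited and -0.01 after TMM scaling. Without library 1, 17 were lower (25.4% of all genes) and 2 higher (9.65%); ALDOC then differed by -2.51 and SLC16A1 by -2.54. GPI and ALDOA lost the call on leaving out some other libraries, and the other 10 kept it in each such fit. ALDOA also lost it after TMM scaling (-0.29, adjusted p = 0.104) and with edgeR (-0.27, adjusted p = 0.119).

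Members lowered in both lines numbered 5 with all libraries (GPI, FBP1, ALDOA, ALDOC and PDK3), 27.8% of the 18 in H441 and 71.4% of the 7 in HT29. Over all genes, 233 were lowered in both, 12.5% of those lowered in H441 and 39.8% of those lowered in HT29. Without library 1 the members numbered 12, 66.7% of the 18 and 63.2% of the 19, against 755 of all genes, 40.6% and 20.4%. Members raised in H441 and lowered in HT29 were PFKFB3 with all libraries, and HK2, PFKFB3 and SLC16A1 without library 1. PFKFB3 was 16.7% of the 6 raised in H441 and 14.3% of the 7, against 1.21% and 11.5% over all genes (67). The 3 without library 1 were 50% of the 6 and 15.8% of the 19, against 13.2% and 19.9% over all genes (734). No member was raised in both lines by limma, against 128 of all genes with all libraries and 1192 without library 1.

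Library 1 of HT29 in RPMI-1640 touched the members unevenly. It was above libraries 2 and 3 for 28 members (52.8% of all genes) and below both for 9 (38.5%), namely SLC2A12, HKDC1, PFKFB4, ALDOC, ENO2, PDK1, PDK4, SLC16A3 and BSG. Its level over the mean of the other 2 was 4.41 for PGAM1, 3.34 for ENO1, 3.02 for PKM, 2.47 for LDHB and 2.38 for LDHA, and 0.274 for ENO2 and 0.179 for PDK4. HPLM libraries lay wholly below RPMI-1640 for 19 members with it (20.5% of all genes) and 23 without it (33.4%), and wholly above for 3 (15.3%) and 5 (31.3%).

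**Figure D4:**
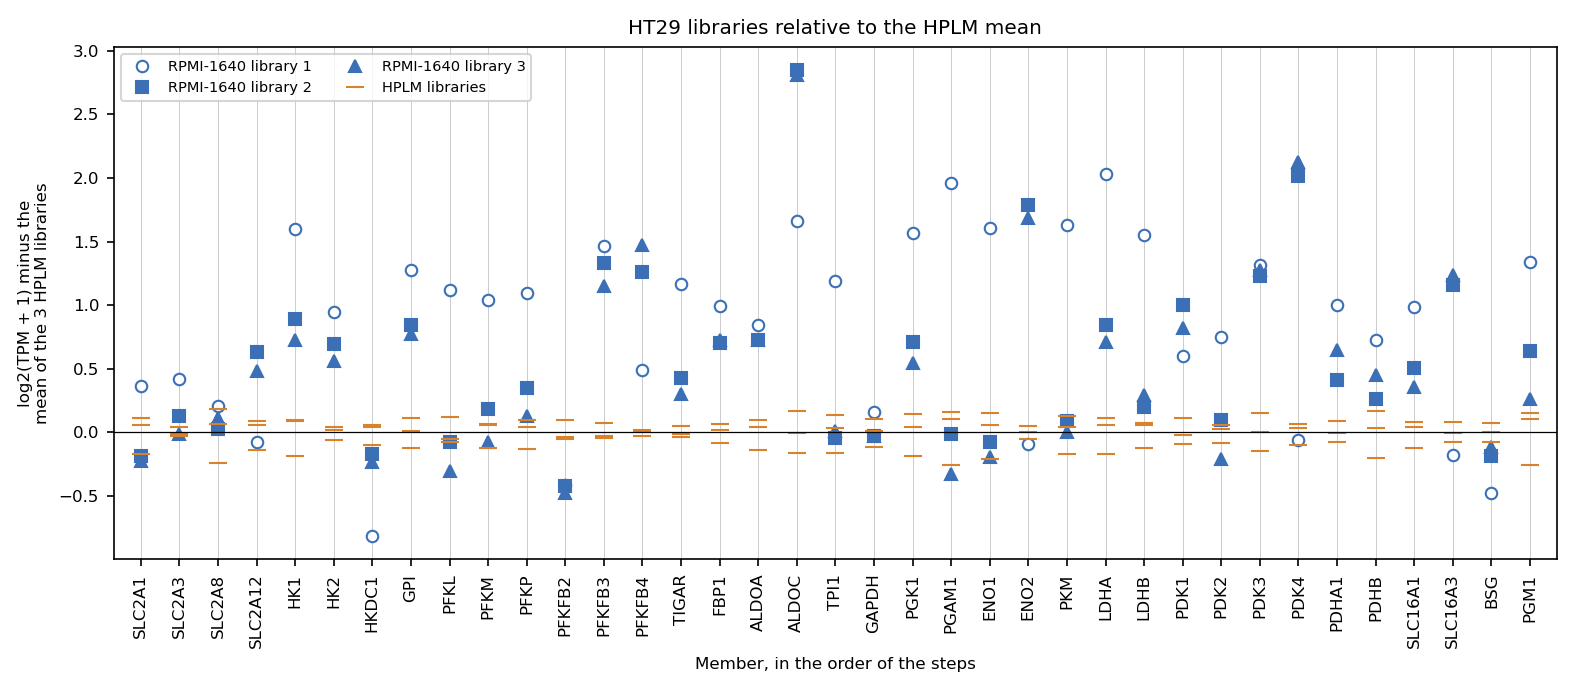
log2(TPM + 1) of each member in each HT29 library minus the mean of the 3 HPLM libraries; the open circle is RPMI-1640 library 1, the square library 2, the triangle library 3 and the dashes are the HPLM libraries. Squares and triangles lie close together, while the circle is above both for 28 members, as for PGAM1, and below both for 9, as for PDK4 and ENO2.

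Of 65 other genes of these pathways, in 8 lists from carriers to regulators, 40 could be tested in H441, where 12 rose (30.0%, against 33.7% of all genes) and 6 fell (15.0%, against 11.3%), with a median change of 0.01. That balance turned with the scale, and the shares of all genes moved too. After TMM scaling 9 were raised (22.5%, against 23.5% of all genes) and 17 lowered (42.5%, against 21.2%). With edgeR 10 were raised (28.4% of all genes were) and 22 lowered (27.2% of all genes). In HT29, 45 could be tested, with 2 raised (4.44%, against 2.53% of all genes) and 6 lowered (13.3%, against 3.58%; median -0.30), and 46 without library 1, with 10 raised (21.7%, against 17.8%) and 17 lowered (36.96%, against 21.4%; median -0.13). TXNIP, an arrestin that holds back glucose uptake and is induced when glucose phosphates build up, fell most in H441. Its mean was 1195 ± 52.2 TPM for H441 in RPMI-1640 and 49.4 ± 1.78 TPM in HPLM (log2 change -4.57 ± 0.06, adjusted p = 1.07e-05), and 677 ± 328 TPM and 36.7 ± 2.65 TPM in HT29 (-4.02 ± 0.42, adjusted p = 0.0107; -4.52 without library 1). Its relative ARRDC4 went from 44.4 ± 2.16 TPM to 5.42 ± 0.446 TPM in H441 (-2.82 ± 0.07, adjusted p = 3.91e-05) and from 76.8 ± 19.8 TPM to 3.20 ± 0.554 TPM in HT29 (-4.18 ± 0.24, adjusted p = 0.00431; -4.41 without library 1). Both thus fell in both lines.

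Other named genes of the lists fell in HT29. These were the sodium-coupled glucose carrier SLC5A1 (-1.13 ± 0.17, adjusted p = 0.0196; -1.25 without library 1), the carrier SLC2A6 (-1.05 ± 0.14, adjusted p = 0.0168; -0.99 without library 1) and MPC2, a subunit of the mitochondrial pyruvate carrier (-1.01 ± 0.19, adjusted p = 0.0366; -0.85 without library 1). Without library 1 they also included MLXIPL, which encodes ChREBP (-2.63 ± 0.13, adjusted p = 0.000243), the glucokinase regulator GCKR (-1.95 ± 0.10, adjusted p = 0.000269) and BPGM, which makes 2,3-bisphosphoglycerate (-1.03 ± 0.10, adjusted p = 0.00105). With all libraries these 3 did not pass: MLXIPL changed by -1.69 ± 0.76 (adjusted p = 0.233), GCKR by -1.34 ± 0.50 (adjusted p = 0.166) and BPGM by -0.84 ± 0.20 (adjusted p = 0.0624). No raised gene of the lists reached the change of 1 set for naming. PDP1 and SLC2A11 rose in both lines, by 0.81 and 0.52 in H441 (adjusted p = 0.000284 and 0.00582). In HT29 with all libraries both rose by 0.74 (adjusted p = 0.0454 and 0.0366).

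Processed pseudogenes of these enzymes could share reads with them. The 62 pseudogenes of GAPDH summed to at most 0.55% of its TPM in any library, 13 of PGAM1 to at most 5.45%, 4 of TPI1 to at most 1.53% and 6 of LDHA to at most 1.24%. The library kit kept no strand, so reads of overlapping antisense genes cannot be told apart from those of a member.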

How the data were processed

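The 4 GEO samples, each with 3 numbered libraries, are poly(A) RNA of 2 cell lines in 2 media (TruSeq v2, which keeps no strand, per the labels). The submitters' processing notes name STAR 2.5.2b, Trimmomatic 0.36, DESeq2, Subread 1.5.2 and the build GRCh38. The authors deposited TPM per line for 58051 identifiers, and tables with their log2 fold change, their p-value and a signal per library, a read count divided by a size factor. Whole reads were recovered from that deposited signal (100% of values within 0.01 read). Symbols came from the deposited tables and GENCODE v29.

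Each line was fitted with limma 3.58.1 (R 4.3.3) on log2(TPM + 1), for genes at 1 TPM or more in at least 3 libraries (2 where a library was left out), with two-sided tests and Benjamini-Hochberg adjustment over all genes, threshold 0.05. Alternatives were edgeR 4.0.16 and DESeq2 1.42.0 on recovered reads, the authors' table, TMM scaling, TPM without mitochondrial genes, another pseudocount (0.1), no filter, library weights, a block for library number and each library left out. The fit was tested on simulated data with the same normal spread for a gene in both media. These held no library that stands apart, so they do not cover the HT29 case. Library numbers were checked for pairing, which was not shown. Deviations of same-numbered libraries correlated at -0.03 to 0.02 in H441 and at -0.10 to 0.17 in HT29.

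All 37 members are named; values in every library are given for members with a change of at least 0.5 (adjusted p under 0.05) in either line and their isoenzymes. Other pathway genes are named at a change of at least 1 and a mean of at least 1 TPM, and those raised in both lines with all libraries are added. The members, lists and tests were chosen with earlier results of these data known.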

Additional observations from a re-analysis of the deposited data

Results flagged for a closer look

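For 12 members the response to HPLM differed between the lines by the limma interaction test over 12 libraries, with values as HT29 minus H441 on the log2 scale. Over all 18703 genes tested, 12% were lower and 3.12% higher in HT29, and the median difference was -0.21. The lactate carrier SLC16A1 differed by -2.72 ± 0.21 (adjusted p = 8.09e-05), aldolase C by -2.13 ± 0.37 (adjusted p = 0.00465), HK2 by -1.78 ± 0.16 (adjusted p = 0.00016), HKDC1 by -1.78 ± 0.23 (adjusted p = 0.000988) and PFKFB3 by -1.56 ± 0.15 (adjusted p = 0.000229). PDK1 differed by -0.99 ± 0.17 (adjusted p = 0.00387), SLC2A3 by -0.81 ± 0.16 (adjusted p = 0.00842), GPI by -0.73 ± 0.19 (adjusted p = 0.0303), PDK3 by -0.69 ± 0.14 (adjusted p = 0.00815) and ALDOA by -0.53 ± 0.13 (adjusted p = 0.0225). SLC2A12 (1.18 ± 0.26, adjusted p = 0.0139) and PFKFB2 (0.65 ± 0.14, adjusted p = 0.011) went the other way. Without HT29 RPMI-1640 library 1 all 12 still passed, where 25.4% of all genes were lower and 9.65% higher. Differences then ran from -2.54 (SLC16A1) to -0.49 (ALDOA) for the 10 and were 0.97 and 0.66 for SLC2A12 and PFKFB2. The ALDOA difference did not pass after TMM scaling (-0.29, adjusted p = 0.104), without mitochondrial genes (-0.24, adjusted p = 0.158) or with edgeR (-0.27, adjusted p = 0.119), and that of GPI did not pass without mitochondrial genes (-0.44, adjusted p = 0.0573). With limma and a block for library number, ALDOA (adjusted p = 0.0656) and PFKFB2 (adjusted p = 0.0543) did not pass. SLC2A3 was under 1 TPM in every HT29 library, so its value rests on H441. Of the 12, the groups did not overlap in either line and lay in opposite directions for HK2, PFKFB2, PFKFB3, PDK1 and SLC16A1. Of all genes, HPLM lay wholly above for 42.1% and below for 15.6% in H441, and for 15.3% and 20.5% in HT29. By limma in H441, PDK1 (adjusted p = 0.0758) and PFKFB2 (adjusted p = 0.0835) did not pass. After TMM scaling the H441 change was 0.04 for PDK1 (adjusted p = 0.502) and -0.34 for PFKFB2 (adjusted p = 0.0143).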

How the results depend on the processing

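HT29 calls depend on which library is left out, in a range of 0 to 19 lowered and 0 to 1 raised members. Without RPMI-1640 library 1, 19 were lowered (21.4% of all genes), the 7 of the main fit among them, and 1 raised (17.8%). Without any other single library at most 1 was lowered (at most 0.545% of all genes). Lowered members in HT29 numbered 20 with library weights (25.9% of all genes), 0 with the replicate block (0 of all genes) and 11 with edgeR (5.65%). They numbered 18 with DESeq2 and in the authors' table (12%), and 23 with edgeR without library 1 (30.9%). Raised ones numbered 1 with no filter (1.61%), without mitochondrial genes (5.60%), with library weights (24.6%) and with edgeR (5.17%). They numbered 1 with DESeq2 and in the authors' table (9.25%), and 5 with edgeR without library 1 (30.6%). In H441 lowered members numbered 10 with the replicate block (7.80% of all genes) and 11 to 20 on leaving out a library (7.12% to 9.61%). Library numbers were not shown to pair libraries (correlations of deviations -0.03 to 0.02 in H441, -0.10 to 0.17 in HT29). Responses higher in HT29 numbered 4 without mitochondrial genes (6.19% of all genes), 6 with library weights (12.6%), 1 with the replicate block (1.84%) and 4 with edgeR (6.53%). Lower ones numbered 21 with library weights (30.2%) and 8 to 17 on leaving out a library (6.78% to 25.4%). TMM scaling moved all genes in H441 from 5546 raised and 1858 lowered to 3873 and 3497.

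Signs reversed for changes that limma on TPM as deposited did not call. Of the reversed values, PFKP in H441 passed with edgeR (adjusted p = 0.0186), with DESeq2 and in the authors' table (adjusted p = 0.015), and PFKL in HT29 with edgeR without library 1 (adjusted p = 0.0152). With limma and library weights, the reversed difference between the lines passed for PGAM1 (0.49, adjusted p = 0.049, against -0.22 in the main fit). It also passed for TPI1 (0.40, adjusted p = 0.0197, against -0.05). In H441, with TMM scaling, without mitochondrial genes, with edgeR, with DESeq2 and in the authors' table in turn, SLC2A8 was -0.065, -0.062, -0.088, -0.093 and -0.093, PFKP -0.091, -0.084, -0.098, -0.11 and -0.11, TIGAR -0.13, -0.12, -0.14, -0.15 and -0.15, and BSG -0.038, -0.030, -0.045, -0.055 and -0.055. In HT29, GAPDH was 0.069 with TMM, 0.13 without mitochondrial genes, 0.045 with weights, 0.069 with edgeR, 0.052 with DESeq2 and in the authors' table, and 0.053 with edgeR without library 1; SLC2A8 was 0.024 without mitochondrial genes and 0.057 with weights. With weights, and with edgeR without library 1, PFKL was 0.12 and 0.23, TPI1 0.041 and 0.038, PGAM1 0.16 and 0.20, ENO1 0.14 and 0.16, and PDK2 0.0099 and 0.095. On leaving out a library the HT29 range was -0.088 to 0.21 for SLC2A1, -0.21 to 0.0073 for SLC2A8, -0.52 to 0.19 for PFKL, -0.60 to 0.016 for TPI1, -0.086 to 0.030 for GAPDH, -0.97 to 0.17 for PGAM1, -0.76 to 0.13 for ENO1 and -0.42 to 0.056 for PDK2, and the H441 range was -0.066 to 0.15 for SLC2A8 and -0.082 to 0.078 for TIGAR. The cause was not tested. The 44 isoenzyme shares gave 304 values under alternatives, of which 296 moved by less than 1 SD and 8 by more. Most of these values leave out 1 library. That cannot move a share difference by 1 SD of the wider group, so the count does not measure stability. In HT29 the PDK4 share difference went from -13.3 to -25.2 points without RPMI-1640 library 1, where the SD in RPMI-1640 was 20.8. In HT29 with all libraries the spread of library 1 limits what can be called.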
